A study of Mus musculus with 2 samples.

Results

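The collagen genes of the embryonic mouse limb were taken as every gene whose GENCODE M21 symbol is Col, a number, a and a number, and 44 of 55536 gene entries met this rule. The embryos were of the B6NCrl strain, healthy, of both sexes and 12.5 days old, and their limbs were sampled in 1 group of 2 biological replicates. Replicate 1 pooled 88 embryos and replicate 2 pooled 68 embryos, so the replicates give the spread between pools and not between single embryos. PolyA plus RNA was primed with oligo-dT from 10 ng of input per library, with ERCC spike-in RNA added, and no second tissue, age or treatment was compared. Col3a1, Col2a1, Col1a2 and Col1a1 led the family and held 58.9% of the collagen signal in both libraries, and 34 of the 44 genes reached 1 TPM in both. TPM is the transcript abundance the authors normalised for length and depth, and p-values here compare 2 libraries, not conditions.

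Collagens are secreted or membrane-bound proteins in which chains made of the repeat Gly-X-Y wind into a triple helix, where glycine is the residue small enough to fit the centre. Fibrillar collagens assemble into the fibrils of dermis, tendon, bone and cartilage, network collagens form the sheets of basement membranes, and fibril-associated collagens with interrupted helices (FACIT) sit on fibril surfaces. In the limb bud at this stage, mesenchyme condenses into cartilage models of the bones, and type II collagen with types IX and XI is known as the fibril system of that cartilage, while types I and III are known from the surrounding connective tissue.

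The repeat can be read directly in the coding sequences of the 4 most abundant members. Each line below is an exon of 54 nt in GENCODE M21 on mm10, given on the coding strand from 5′ to 3′, with capitals marking the glycine codons (GGN) that open its 6 repeats. They are shown because each holds whole repeats of 9 nt and no split codon. The exon shown is the first of that length in each gene that is made of unbroken repeats, a choice made after the sequences were seen.
Col3a1, exon 6, chr1:45325360-45325413, plus strand: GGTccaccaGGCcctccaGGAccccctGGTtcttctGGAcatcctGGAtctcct
Col2a1, exon 6, chr15:97998545-97998598, minus strand: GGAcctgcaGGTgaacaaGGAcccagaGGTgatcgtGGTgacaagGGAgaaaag
Col1a2, exon 8, chr6:4515481-4515534, plus strand: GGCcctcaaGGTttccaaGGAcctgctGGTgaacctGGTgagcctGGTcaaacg
Col1a1, exon 8, chr11:94939904-94939957, plus strand: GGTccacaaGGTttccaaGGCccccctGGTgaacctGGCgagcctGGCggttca

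Read over whole coding sequences, the length of unbroken repeats set the fibrillar class apart, while the other classes overlapped. For each of the 44 genes, the complete transcript with the longest coding sequence was scanned for unbroken runs of repeats. Each repeat was opened by a GGN codon, and runs of at least 6 repeats were counted. The scanned transcript was not always the leading one in these libraries. For Col9a1 it was Col9a1-201, where Col9a1-202 led, and for Col9a3 it was Col9a3-203, where Col9a3-201 led. The 11 fibrillar members held a longest run of 216 to 344 repeats and 21 to 33 coding exons of 54 nt. Among them, Col24a1 (216 repeats) and Col27a1 (217 repeats) had the shorter runs, and the other fibrillar members had 337 to 344. No member outside the fibrillar class exceeded 113 repeats, a length reached by Col9a1, Col9a2, Col9a3 and Col22a1. The 6 basement membrane members had a longest run of 39 to 66 repeats but a median of 23.5 separate runs. The 3 short-chain members had a longest run of 59 or 60 repeats and no coding exon of 54 nt. In Col12a1, a long fibril-associated member of 3065 codons, repeats made up 7.63% of the codons, against 85.6% in Col9a3.

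**Figure D1:**
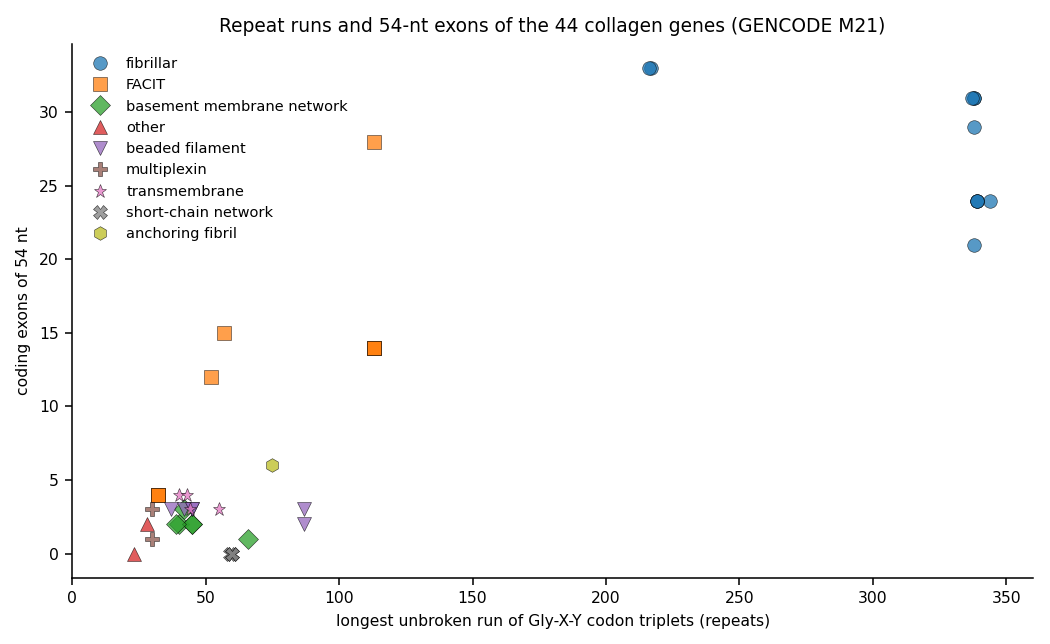
Longest unbroken run of Gly-X-Y repeats (x axis, number of repeats) and number of coding exons of 54 nt (y axis) for 1 coding transcript of each of the 44 collagen genes, with marker shape and colour giving the class. The 11 fibrillar members lie to the right at 216 repeats or more, and the highest of the other classes lie at 113.

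The libraries were similar in depth, with 29633457 expected counts over genes in replicate 1 and 30118921 in replicate 2, and spike-ins took 3.19% and 2.24% of all counts. Markers of the labelled tissue were present: limb mesenchyme genes summed to 846 and 873 TPM with 5 of 5 at 1 TPM in both, and cartilage genes to 405 and 389 TPM with 7 of 7. Muscle, endothelium, epidermis and tendon lists were also at 1 TPM in all their members, as were 4 of 6 genes of hypertrophic cartilage and bone. Bglap2 of bone and Nkx2-5 of heart had 0 reads in both libraries, but Myh6 of heart was at 2.57 and 1.40 TPM, and Afp of liver at 3.97 and 2.35 TPM. The tissue was therefore measured as a mixture, in which fewer cells of a type and less RNA per cell cannot be told apart. Nothing in the labels says whether the RNA of the pools was extracted on the same day.

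Collagen genes were expressed at higher levels than a typical gene. Of the 44 members, 77.3% reached 1 TPM in both libraries, beside 58.1% of 22028 protein-coding genes, and 24 reached 10 TPM and 7 reached 100 TPM in both. The median member was at 18.2 TPM, and the median protein-coding gene at 3.88 TPM. All members together took 0.323% of the gene TPM in replicate 1 and 0.290% in replicate 2, a mean of 0.307 ± 0.0232% (SD, n = 2). Since collagen transcripts are long, their share of the counts was larger, 0.921% and 0.843%. The 11 fibrillar genes held 65.3% and 64.8% of the collagen TPM, and the 9 FACIT genes held 15.6% and 15.5%. No member was without reads, and the lowest, Col4a3, rested on 4.09 and 6.09 estimated reads.

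**Figure D2:**
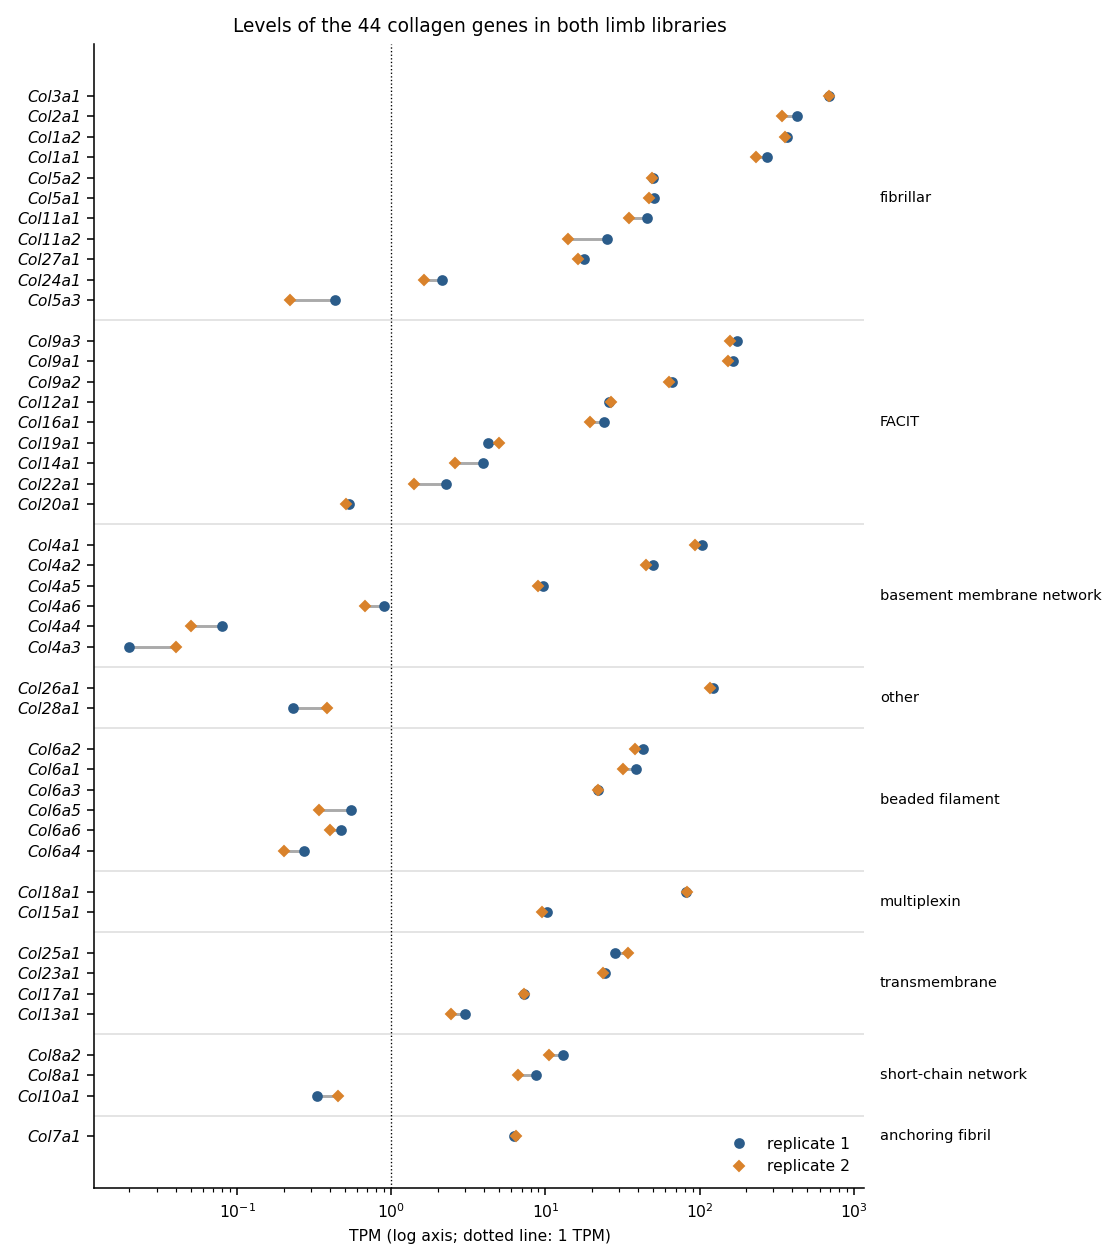
TPM (log axis) of each of the 44 collagen genes in replicate 1 (circles) and replicate 2 (diamonds), grouped by class and ordered by level within a class, with a grey line joining the libraries and a dotted line at 1 TPM. Levels run from 695 TPM for Col3a1 down to 0.02 TPM for Col4a3, and the libraries lie close together at high levels.

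The order of the family was only partly resolved. Of the 43 neighbouring pairs in the order of mean level, 23 had values that did not overlap between the genes and 20 overlapped. In 15 of the overlapping pairs, such as Col2a1 with Col1a2 and Col5a2 with Col5a1, the order was not the same within each library. In the other 5, such as Col9a3 over Col9a1, it was the same in both.

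Among the fibrillar genes, Col3a1, which forms fibrils in soft connective tissue, was the most abundant at 695 and 689 TPM in replicates 1 and 2, 165th among all genes. Col1a2 followed at 368 and 357 TPM, and Col1a1 at 274 and 231 TPM. These genes encode the chains of type I collagen, which is built from a pair of the Col1a1 product and a single Col1a2 product. In these libraries Col1a1 RNA was the lower, at 0.745 and 0.647 of Col1a2. Col1a2 and Col3a1 differed by 1.03-fold or less between the libraries, while Col1a1 was 1.19-fold higher in replicate 1.

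Col2a1, the main fibrillar collagen of cartilage, stood at 426 TPM in replicate 1 and 344 TPM in replicate 2. Its partners in the cartilage fibril were lower, with Col11a1 at 45.5 and 34.8 TPM and Col11a2 at 24.9 and 14.0 TPM. All of these were higher in replicate 1, by 1.24-fold for Col2a1, 1.31-fold for Col11a1 and 1.79-fold for Col11a2. The Col2a1 to Col11a1 ratio was nonetheless similar, 9.36 and 9.90. Col5a1 and Col5a2, whose products set the diameter of type I fibrils, were nearly level with each other at 50.8 and 47.2 TPM and at 49.7 and 49.0 TPM.

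The remaining fibrillar genes were lower. Col27a1, known from cartilage, was at 17.7 and 16.3 TPM, and Col24a1, known from developing bone, at 2.14 and 1.62 TPM. Over coding transcripts alone the mean of Col27a1 was 6.13 TPM and that of Col24a1 1.08 TPM. Col5a3 stayed under 1 TPM, at 0.43 and 0.22 TPM from 51 and 27 reads. All 11 fibrillar members had a lower TPM in replicate 2, by a median of -0.18 on the log2(TPM + 1) scale over the 10 that were tested. By counts per TMM library size 8 of those 10 were lower, and Col5a2 and Col27a1 were higher by 0.02 and 0.01 (log2).

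The Col2a1 transcripts split by an alternative exon. The annotated second exon, 204 nt on the minus strand at chr15:98000403-98000606, encodes the cysteine-rich domain of the amino-terminal propeptide, and the form that retains it is known from precursors of chondrocytes, while the form that skips it is known from differentiated chondrocytes. The exon is shown because it splits the Col2a1 transcripts into forms that differed unequally between the libraries. Capitals mark its 10 in-frame cysteine codons (TGC or TGT).
Col2a1, exon 2: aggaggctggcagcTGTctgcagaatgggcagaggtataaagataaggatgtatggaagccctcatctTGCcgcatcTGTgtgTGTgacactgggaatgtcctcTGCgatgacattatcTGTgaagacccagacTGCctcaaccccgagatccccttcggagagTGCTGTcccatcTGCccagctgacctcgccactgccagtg

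Transcripts with this exon summed to 273.6 TPM in replicate 1 and 251.6 TPM in replicate 2. The transcript that skips it, Col2a1-202, had 119.7 and 66.8 TPM. The form with the exon was thus the major one in both libraries, at 69.6% and 79.0% of the forms, or 2.29 and 3.77 times the skipping form. The skipping form was 1.79-fold higher in replicate 1, a log2 difference of -0.84 (replicate 2 over 1) against 0.31 for the 95th percentile among the 500 transcripts nearest in level. The form with the exon differed by -0.12 against 0.30, within that spread. The skipping form lacks 68 codons, with 1419 against 1487. In the GENCODE M4 quantification the main transcripts of these forms stood at 281 and 259 TPM with the exon and at 133 and 78.0 TPM without it.

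Of the fibril-associated genes, the 3 that make type IX collagen, which binds to type II fibrils, were the highest. Col9a3 was at 175 and 157 TPM, Col9a1 at 165 and 153 TPM, and Col9a2 at 65.8 and 62.9 TPM. Type IX collagen contains a single chain from each gene, and here Col9a2 RNA was 0.377 and 0.401 of Col9a3, while Col9a1 was 2.51 and 2.43 times Col9a2. Each of the 3 was slightly higher in replicate 1, by 1.05-fold to 1.12-fold.

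Col9a1 has a pair of start sites 17577 nt apart, and the transcript from the upstream start, the long form known from cartilage, holds 7 exons that the short form lacks. The short form, Col9a1-202, made 147.8 and 142.9 TPM, and the long form, Col9a1-201, made 15.1 and 8.37 TPM. The short form was therefore 90.8% and 94.5% of both forms together. It encodes 680 codons against 921. The coding part of its own first exon is printed here, with capitals marking in-frame ATG codons.
Col9a1 short form, chr1:24195380-24195457, plus strand: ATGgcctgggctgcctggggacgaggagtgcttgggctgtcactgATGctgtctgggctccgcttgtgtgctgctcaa

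The long form was 1.80-fold higher in replicate 1, a log2 difference of -0.85 against a spread of 0.77, and the short form differed by -0.05 against 0.30. In both Col2a1 and Col9a1 the less abundant form thus differed more between the libraries, in TPM, than the more abundant form. In the M4 quantification the long form of Col9a1 stood at 15.7 and 8.72 TPM and the short form at 156 and 151 TPM. The split of Col9a1 by form was made after its values had been seen.

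**Figure D3:**
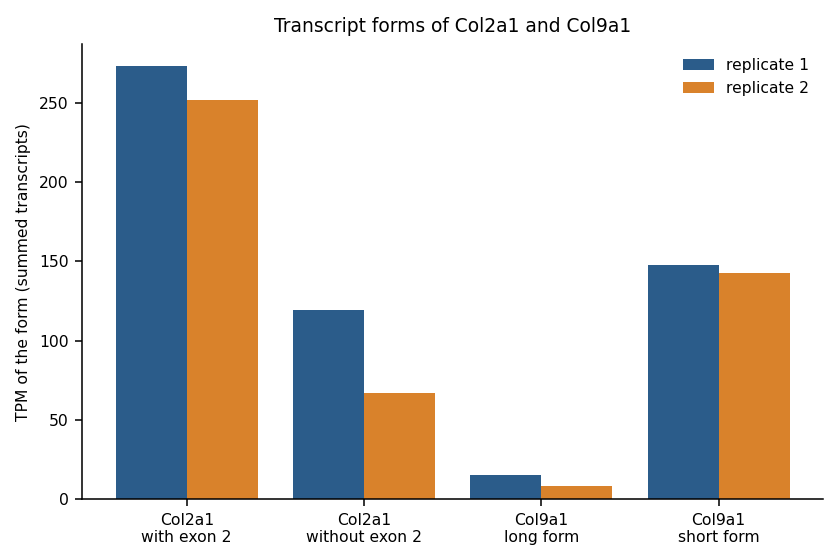
TPM (linear axis from 0) of the transcript forms of Col2a1, with and without its second exon, and of Col9a1, from the upstream (long) and downstream (short) start, with a bar for each replicate. The skipping form of Col2a1 stands at 119.7 TPM in replicate 1 and 66.8 TPM in replicate 2, and the long form of Col9a1 at 15.1 and 8.37 TPM, while the other forms differ less.

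The other FACIT genes were lower. Col12a1, known from tendon and perichondrium, was at 25.7 and 26.8 TPM, and Col16a1 at 24.1 and 19.3 TPM, with means of 16.8 and 11.6 TPM over coding transcripts alone. Col14a1, a fibril-associated collagen of tendon and dermis, was at 3.93 and 2.58 TPM, Col19a1 at 4.26 and 4.98 TPM, and Col22a1, known from the junction of muscle and tendon, at 2.27 and 1.40 TPM. Col20a1 was under the minimum at 0.53 and 0.51 TPM.

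In the basement membrane class, the chains of the widespread type IV network were the only abundant ones. Col4a1 was at 104 and 93.8 TPM and Col4a2 at 49.6 and 44.9 TPM, and the type IV molecule they form contains a pair of Col4a1 products and a single Col4a2 product. The ratio of Col4a1 to Col4a2 RNA was 2.09 by TPM in both libraries, and protein chains were not measured. The mean log2 ratio was 1.06 with M21 and 0.948 with M4. The genes face each other head to head on chromosome 8 with gene ends that overlap by 22 nt, and since the use of strand in the counting was not given in the sources used here, reads in that overlap cannot be told apart. Col4a5, which joins networks of muscle, skin and kidney, was at 9.68 and 8.94 TPM, and its head-to-head neighbour Col4a6 on chromosome X, 1308 nt away, at 0.89 and 0.67 TPM. Their ratio was 10.9 and 13.3. Col4a3 and Col4a4, known from the kidney glomerulus and 71 nt apart, lay at 0.02 and 0.04 TPM and at 0.08 and 0.05 TPM, from at most 16 reads in a library, and neither their ratio nor its direction was resolved.

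Type VI collagen, the beaded filament around cells, was made from Col6a2 at 42.8 and 38.0 TPM, Col6a1 at 38.4 and 32.0 TPM and Col6a3 at 22.0 and 21.8 TPM. Col6a1 and Col6a2 did not differ beyond the spread, and Col6a3 was 0.573 and 0.682 of Col6a1. Col6a4, Col6a5 and Col6a6 were at 0.20 to 0.55 TPM in either library. Col6a5 and Col6a6 had estimated counts that were not whole but summed to whole numbers, 171 and 131, so the authors' counting had shared reads between them, and their single values are uncertain. Col3a1, Col5a1, Col9a3 and Col4a3 also had counts that were not whole.

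The short-chain network genes Col8a1 and Col8a2, known from endothelium and the cornea, were at 8.67 and 6.63 TPM and at 13.1 and 10.6 TPM. Col10a1, the marker collagen of hypertrophic chondrocytes, rested on 20 and 27 reads, at 0.33 and 0.45 TPM. Beside it, Ihh, a signal of prehypertrophic chondrocytes, was at 5.07 and 2.66 TPM. Of the 4 tested genes of hypertrophic cartilage and bone, 3 were lower in replicate 2, while Spp1 was slightly higher, at 4.13 and 4.36 TPM. Ibsp of bone was under the minimum and untested, at 0.67 and 0 TPM from 26 and 0 reads.

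Multiplexins, whose carboxy-terminal fragments are known as inhibitors of vessel growth, were represented by Col18a1 at 82.0 and 82.9 TPM and Col15a1 at 10.2 and 9.47 TPM. Col18a1 came almost wholly from a single transcript, Col18a1-202, at 96.7% and 95.5%. Membrane-spanning members included Col25a1 at 28.1 and 34.5 TPM, which is known to be needed for motor axons to enter muscle and had a mean of 18.3 TPM over coding transcripts alone, and Col23a1 at 24.2 and 23.5 TPM. Col17a1, the collagen of hemidesmosomes in the epidermis, was at 7.28 and 7.24 TPM, and Col13a1, of the neuromuscular junction, at 3.01 and 2.42 TPM. Col7a1, which forms the anchoring fibrils under the epidermis, was at 6.22 and 6.41 TPM, with a mean of 2.19 TPM over coding transcripts alone. Of the members in no class, Col26a1 ranked seventh in the family at 121 and 116 TPM, and Col28a1 was at 0.23 and 0.38 TPM.

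Ratios between chain genes were larger than the replicate spread in 9 of 13 pairs. For each pair, the smaller of the log2 ratios was set beside the 95th percentile of the difference between libraries among 500 genes whose level was closest to that of the lower gene. The 4 pairs that did not pass were Col4a3 with Col4a4, Col5a1 with Col5a2, Col6a1 with Col6a2, and Col8a1 with Col8a2. Col8a1 was lower than Col8a2 in both libraries, with log2 ratios of -0.59 and -0.68 against a spread of 0.61. Col3a1 exceeded Col1a1 by 2.54-fold and 2.98-fold, and Col11a1 exceeded Col11a2 by 1.82-fold and 2.49-fold. With 2 values a gene no permutation test can pass 0.05, so no test was made. The spread is that of the same gene between libraries, not of different genes. No share over other pairs of genes was taken, so the 9 of 13 has no background.

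**Figure D4:**
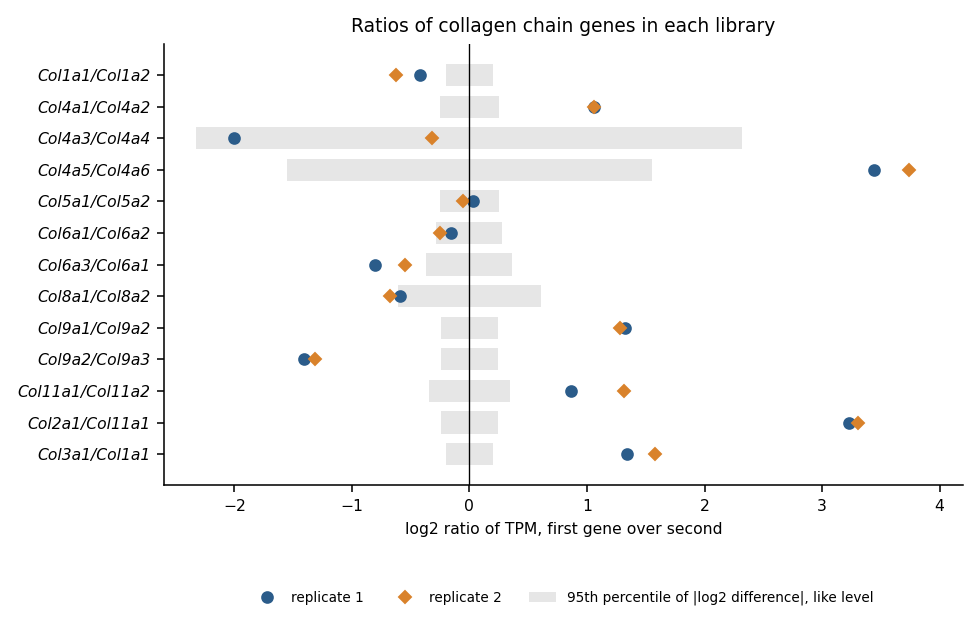
Log2 ratio of TPM, first gene over second, for 13 pairs of collagen genes in replicate 1 (circles) and replicate 2 (diamonds). Grey bars span the 95th percentile of the difference between libraries among genes of like level on both sides of 0, and in 9 pairs both symbols lie outside the bar.

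Most abundant members were read mainly from a single coding transcript. Shares are percent of a gene's TPM, in which a short transcript weighs more than in its reads. Of the 24 members whose mean level was 10 TPM or higher, the leading transcript held at least 50% of its gene in both libraries in 20 and at least 90% in 10. Col1a1-201 (99.8% and 99.6%), Col1a2-201 (93.6% in both), Col5a1-201 (99.0% and 100%), Col4a2-201 (98.5% and 100%) and Col23a1-201 (100% in both) were of this kind. Col3a1-201 held 84.2% and 83.8%, Col9a3-201 79.7% and 79.1%, and Col4a1-201 87.9% and 93.8%. Col26a1-202 held 60.0% and 54.4%, and Col2a1-201 held 64.2% and 73.1%. Col5a2-201, Col6a1-201, Col6a2-201, Col8a2-201 and Col9a2-201 each held between 88.7% and 100% in either library.

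By TPM, the 4 members without such a leader were Col12a1, Col6a3, Col16a1 and Col27a1. In Col12a1, the short coding transcript Col12a1-204 (1784 nt) held 34.1% and 38.8%, ahead of the full transcript Col12a1-201 (11511 nt) at 27.9% and 24.3% and the retained-intron transcript Col12a1-206 at 28.8% and 27.4%. In Col6a3, Col6a3-202 held 42.6% and 37.7%, and the retained-intron transcript Col6a3-206, of 646 nt, held 29.9% and 33.3%. Col16a1-201 held 28.9% and 40.7% and the noncoding Col16a1-207 27.4% and 23.1%. Col27a1 was the single member of the 24 whose leading transcript was noncoding: Col27a1-205, of 1485 nt, held 41.3% and 32.7%, and the coding Col27a1-201 33.9% and 38.4%, so that its leader by TPM differed between the libraries. By expected counts the picture differed. Col27a1-205 held 13.7% and 9.93% of the reads of its gene, and the coding Col27a1-201 led with 61.1% and 63.2%. Col12a1-201 likewise led with 63.6% and 60.9% of the reads, and Col6a3-202 with 78.7% and 73.7%, while Col16a1-201 held 45.6% and 57.7%. With the leader chosen by reads, all 24 members had the same coding leader in both libraries, and 23 had it at 50% or more in both.

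By TPM, some abundant members carried a sizeable share annotated for nonsense-mediated decay, the pathway that removes messages with an early stop. In Col25a1, Col25a1-204 of this type held 36.0% and 34.0%, behind the coding Col25a1-202 at 56.9% and 57.3%. In Col11a1 transcripts of this type held 12.5% and 17.1%, and Col11a1-201 held 80.7% and 73.8%. Col11a2-201 held 65.9% and 74.0%, with retained-intron transcripts at 17.4% and 6.30%. By reads the coding leaders held more. Col11a1-204, of 2570 nt and annotated for decay, had 278 and 292 of the 5880 and 4284 reads of its gene. Col11a1-201 held 93.3% and 90.4% of the reads, Col25a1-202 71.2% and 71.5%, and Col11a2-201 80.3% and 80.9%.

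Between the libraries, no collagen gene met the rule for a differing gene, and most were slightly lower in replicate 2. The rule asks for an adjusted p under 0.05 by an exact two-sided binomial test (Benjamini-Hochberg over 15926 genes) and a TPM ratio of at least 2. None of the 34 tested members passed, beside 170 genes in all (1.07%). With so small a share of all genes called, a count of 0 among 34 shows nothing about the family. At an unadjusted p under 0.05 by the same test there were 26 members. No share over all genes was taken at that cutoff, so the 26 has no background. The median level was 28.8 TPM for tested members and 15.3 TPM for all tested genes, and the test passes smaller differences at higher counts. Without a fold minimum 20 members (58.8%) passed at the adjusted p, beside 19.2% of all genes. Of those 20, 19 were higher in replicate 1 (10.3% of all genes) and Col25a1 alone was higher in replicate 2 (8.96% of all genes). Counts of this size make differences of a few percent pass: Col3a1, with 1.01-fold between the libraries, had an adjusted p of 0.0182 by this exact test. With a ratio of at least 1.5 in place of 2, Col11a2 and Col14a1 passed, both higher in replicate 1, beside 2.71% of all genes in either direction and 1.23% higher in replicate 1.

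Of the 34 tested members, 29 (85.3%) had a lower TPM in replicate 2, beside 46.7% of all tested genes. The median log2(TPM + 1) ratio was -0.11 for the members and 0.01 for all tested genes. On counts per library size scaled by TMM the medians were -0.13 for members and -0.0032 for all genes, a gap of 0.13 that a scaling of whole libraries cannot change. Scaling to spike-in totals shifts all genes by a median of 0.52 (log2) and turns the absolute direction. By counts, 28 of 29 significant members were then higher in replicate 2, beside 13272 significant genes higher and 69 lower over all genes. With TMM it was 1 of 20 members, beside 1374 significant genes higher and 1691 lower. The turn under spike-ins is thus that of all genes and not of the members. The lower level in replicate 2 is therefore relative to the other genes of the library. For Col18a1, Col17a1, Col7a1, Col5a2, Col12a1 and Col27a1 the TPM ratio and the count ratio pointed in opposite directions.

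Measured against the spread of genes at like level, 5 members lay past it. That spread is a 95th percentile, so by its definition some genes of any level lie past it. Col2a1, Col1a1, Col11a1 and Col11a2 were lower in replicate 2, with log2 TPM ratios of -0.31, -0.25, -0.39 and -0.84 against 95th percentiles of 0.18, 0.20, 0.24 and 0.34. Col25a1 was higher in replicate 2, by 0.30 against 0.29, at the edge of that spread. Beside it, Tubb3 of neurons was at 7.13 and 11.5 TPM, also higher in replicate 2, while Elavl3 (0.01 and 0.18 TPM) and Snap25 (0.37 and 0.25 TPM) of the same marker list were under the minimum, and their part in the Col25a1 difference was not tested. Col14a1, which passed the 1.5-fold rule, did not pass this measure, with 0.84 for genes of its level, and neither did Col22a1, 1.62-fold higher in replicate 1, with an adjusted p of 0.59 by the exact binomial test.

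**Figure D5:**
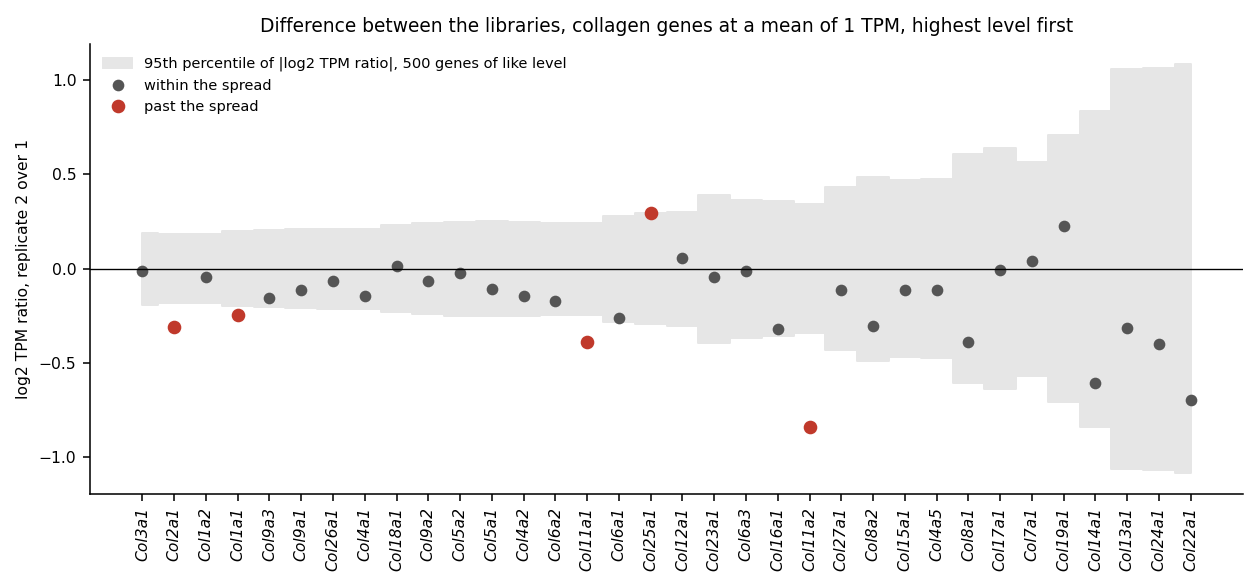
Log2 TPM ratio of replicate 2 over replicate 1 for the 34 tested collagen genes (mean of 1 TPM or higher), highest level at the left. The grey band gives the 95th percentile of the ratio among the 500 genes nearest in level on both sides of 0; Col2a1, Col1a1, Col11a1 and Col11a2 lie under the band and Col25a1 just above it.

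Cartilage genes outside the collagen family were also lower in replicate 2. Acan, the large proteoglycan of cartilage, was at 8.07 and 3.90 TPM, Matn1 at 24.0 and 9.65 TPM, Hapln1, the link protein, at 16.8 and 10.2 TPM, and Cnmd at 26.7 and 20.0 TPM. The transcription factors that drive cartilage collagen genes were not lower together: Sox9 was at 197 and 195 TPM, Sox5 at 71.9 and 76.7 TPM, and Sox6 at 60.8 and 73.0 TPM. Of the 7 cartilage markers, 5 were lower in replicate 2 (46.7% of all tested genes), and 2 met the 2-fold rule (0.458% of all genes in that direction). Other marker lists were lower as well: 4 of 4 epidermis genes with a median log2(TPM + 1) ratio of -0.12, 3 of 3 tendon genes (-0.16) and 3 of 3 macrophage genes (-0.20). So were both tested pericyte genes (-0.16) and 3 of 4 endothelium genes (-0.11), with Afp of liver and Myh6 of heart each at -0.57. In hypertrophic cartilage and bone, 3 of 4 tested genes were lower (-0.37), and in muscle 3 of 4 (-0.08). Schwann cell precursor (-0.06) and red blood cell genes (-0.02) were lower in 2 of 3 each. Tubb3, the 1 tested neuron gene, was higher (0.62). Limb mesenchyme genes were lower in 2 of 5, with a median of 0.05. The part of any of these in the collagen differences was not tested.

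Genes of collagen-associated matrix proteins were lower in replicate 2. All 18 tested genes of the collagen-associated matrix list were lower in replicate 2 (46.7% of all tested genes). Their median log2(TPM + 1) ratio was -0.44, beside -0.11 for the collagens. The 2-fold rule was met by 4 of them (Matn1, Kera, Acan and Comp), where 0.458% of all genes were called in that direction. Sparc, a collagen-binding matricellular protein, was the most abundant at 381 and 354 TPM. Fn1, fibronectin, followed at 154 and 149 TPM, and then Lum, lumican, at 115 and 83.7 TPM. Tnxb, tenascin X, was the lowest at 0.01 and 0 TPM. Kera, keratocan, was at 27.6 and 12.8 TPM and Comp at 4.52 and 2.24 TPM. Matn1 and Acan also stand in the cartilage marker list.

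The machinery that makes collagen was abundant and nearly even. Of 35 biosynthesis genes, 32 reached 1 TPM in both libraries, and 27 of the 32 tested were lower in replicate 2 (46.7% of all genes), with a median log2(TPM + 1) ratio of -0.07. Serpinh1, the chaperone specific to procollagen, was at 989 and 948 TPM, above every collagen gene. P4hb, a subunit of prolyl 4-hydroxylase, was at 493 and 494 TPM, Ppib, a prolyl isomerase, at 423 and 420.5 TPM, and the tolloid-like protease Tll2 was lowest at 0.22 and 0.29 TPM. Creb3l1, a transcription factor known to activate collagen genes in bone, met the 2-fold rule at 2.06 and 1.00 TPM (0.458% of all genes in that direction), and P4ha3 also passed the 1.5-fold rule at 8.70 and 5.35 TPM (1.23% of all genes).

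Among collagen receptors, 7 of 10 were at 1 TPM or higher in each library, and the highest was the integrin subunit Itgb1 at 168 and 161 TPM, followed by Ddr2 at 87.5 and 88.9 TPM and Ddr1 at 31.8 and 30.7 TPM. Gp6, the platelet receptor, was the lowest at 0.17 and 0.52 TPM, and none of the 7 tested met the 2-fold rule, while Itga11 passed the 1.5-fold rule at 5.95 and 3.55 TPM (1.23% of all genes in that direction). With 1.07% of all genes called at 2-fold, a count of 0 in a list this short, here and in the lists that follow, shows nothing about the list. Among collagen-degrading enzymes, Mmp2 stood at 171 and 168 TPM, Mmp14 at 137.5 and 119 TPM, and Ctsk at 7.89 and 6.28 TPM, while Mmp13, a collagenase of hypertrophic cartilage, had 0 reads in both. All 4 tested members of that list were lower in replicate 2 (46.7% of all tested genes) and none met the 2-fold rule. Of the 8 regulators, led by Sox9, Sox5 and Sox6, 6 were lower in replicate 2 (46.7% of all tested genes). None met the 2-fold rule, and Sp7 was the lowest at 3.34 and 2.51 TPM.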

How the data were processed

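Per the labels, the authors deposited gene and transcript tables for GENCODE M21 and GENCODE M4 on mm10. They hold expected counts, TPM and FPKM, all estimated by the authors, and the deposited percent of each gene taken by a transcript. The sources used here do not name the aligner, the program version or the strandedness of counting. M21 was the main annotation. Counts were rounded for the test. Genes at a mean of 1 TPM were compared between 2 libraries by an exact binomial test with edgeR 4.0.16 TMM library sizes, adjusted by Benjamini-Hochberg; no dispersion can be estimated against a second group. On simulated counts for 15926 genes the test recovered 99.0% of 96 genes changed 3-fold and 104 of 104 changed 5-fold, and called 10 unchanged genes. The changed genes were drawn only from those at 5 TPM or more, so recovery at lower levels or near 2-fold was not measured. The simulated libraries held a fixed variation beyond counting error. The test covers counting error only, and the simulation does not measure variation between real pools.

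Members at 1 TPM were named with both values, as were the 3 highest and the lowest of each list; others were named after their values were seen. Members and lists were chosen with earlier results of these data known. Transcript spread, the Col9a1 split, codon-level repeats (in place of protein sequences, not used here) and the printed exons were chosen after seeing the data. Alternatives covered minima, pseudocounts, scalings (DESeq2 1.42.0, totals, spike-ins), FPKM, M4, coding transcripts and single libraries.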

Additional observations from a re-analysis of the deposited data

How the results depend on the processing

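The count of collagen genes at 1 TPM (34) ranged from 29 to 36 over the alternatives, the count of pairs past the spread (9) from 9 to 10, and the count of members with a leading transcript of at least 50% (20) from 20 to 21 with the leader kept, and 23 where the leader was chosen anew by expected counts, an alternative chosen after seeing the data. The collagen share of gene TPM rose from 0.307% to 0.390% when only protein-coding transcripts were summed. Differing collagens numbered 0 under every scaling, minimum level and annotation tried, 2 at 1.5-fold and 20 with no fold minimum. The 0 shows nothing about the family, since few of all genes were called at 2-fold. Over all genes, the 170 called became 378 with no minimum level, 38 at 5 TPM, 432 at 1.5-fold and 3065 with no fold minimum. With counts not divided by length, Col5a1 stood above Col5a2 by 0.38 (log2), and the Col6a3 to Col6a1 ratio no longer passed. The Col8a1 to Col8a2 ratio passed with M4, with coding transcripts alone and without replicate 1. Single levels moved by more than the SD between libraries in 18 of 44 members with M4 and in 17 of 44 with coding transcripts, where Col27a1 fell to 6.13 TPM, Col16a1 to 11.6, Col12a1 to 16.8, Col25a1 to 18.3, Col6a3 to 14.3, Col7a1 to 2.19 and Col24a1 to 1.08. Neither library can be left out of the test between them. No paired analysis was possible because there is a single group. Depth limits members under 1 TPM, which rest on 4.09 to 115 reads.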

Other observations

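Several members under 10 TPM were split between transcripts. In Col7a1, the leading transcript was the retained-intron Col7a1-208, of 525 nt, at 41.0% and 33.3%, and the full coding Col7a1-201, of 9198 nt, held 16.6% and 30.5%. In Col17a1, Col17a1-201 held 68.5% and 46.8% and Col17a1-202 held 27.6% and 53.2%, so that the leader changed between the libraries at a gene level of 7.28 and 7.24 TPM. In Col15a1, the short coding Col15a1-203 held 36.7% and 40.3% beside Col15a1-202 at 57.8% and 58.4%. In Col24a1, retained-intron transcripts held 43.3% and 42.3%.

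Across the 44 members, the M4 level was 0.678 to 1.17 times the M21 level, with a median of 1.06. Col7a1 had the lowest ratio, at 4.28 TPM with M4.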
